A study of Mus musculus with 2 samples.

Results

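T and Sox2 double-positive cells were examined in 2 single-cell RNA sequencing libraries of mouse somitic gastruloids, 1 treated with dTAG-13 and 1 untreated. A cell was a member of this set when it held at least 2 UMIs of T, at least 1 UMI of Sox2 and 0 UMIs of Tbx6, Foxa2, Noto and Zfp42. A UMI (unique molecular identifier) marks 1 counted RNA molecule. Cells also had to carry at least 1000 detected genes and at most 10% mitochondrial UMIs. The rule found 300 of 7180 dTAG-13 cells and 520 of 6646 untreated cells, which is 820 of 13826 cells in all, or 5.93%. Members were thus chosen by their measured UMIs of T, Sox2, Tbx6, Foxa2, Noto and Zfp42, whose values describe the choice and are no result.

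Gastruloids are embryonic stem cell aggregates that form embryo-like tissues in culture. Both libraries came from the E14 triple reporter line, whose endogenous Zeb2 carries an HA-FKBP12F36V degron tag, so the untreated cells carry the tag as well. dTAG-13 is a small molecule that directs proteins with this tag to degradation. Treated gastruloids had been given 100 nM of it at 72 h and again at 96 h. The others are labelled untreated, although the series text names DMSO. In both arms 300 sorted cells formed each aggregate, the WNT pathway activator CHIR99021 was present at 3 µM after 48 h, and 10% Matrigel was added at 96 h. Each library pooled about 32 gastruloids, whose cells cannot be traced back to single gastruloids. The labels do not state the hour of collection, and the Zeb2 protein was not measured here.

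Neuromesodermal progenitors are cells at the tail end of the embryo that supply both spinal cord and trunk mesoderm. They are recognised by joint expression of the mesodermal factor T (Brachyury) and the neural factor Sox2, and they depend on WNT and FGF signals, among them Wnt3a and Fgf8, and on the caudal homeobox factors of the Cdx family. On the way to mesoderm they switch on Tbx6, and on the way to spinal cord they lose T and keep Sox2. The transcription factor Zeb2 represses epithelial genes such as Cdh1, which encodes E-cadherin.

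The dTAG-13 library held 7873 barcodes and 176677276 UMIs, and the untreated library 7276 barcodes and 158002807 UMIs, with 11 barcode sequences occurring in both. Members had a median of 22227.5 UMIs in the dTAG-13 library and 24181 in the untreated library, against 20631.5 and 20298 in the other cells. With 1 library in each group there was no replicate and no test, so each difference is one between 2 libraries. Levels are UMIs summed over cells and scaled to 1000000 UMIs of those cells (CPM), with 95% exact Poisson intervals, and shares of cells carry 95% exact Clopper-Pearson intervals. Both kinds of interval cover counting error only.

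Double-positive cells were scarcer in the dTAG-13 library. They made up 4.18% (3.73 to 4.67) of dTAG-13 cells and 7.82% (7.19 to 8.50) of untreated cells. Before the excluding genes were applied, 656 dTAG-13 cells (9.14%) and 972 untreated cells (14.6%) held both T and Sox2. Of these, 103 dTAG-13 and 262 untreated cells held Tbx6, the presomitic mesoderm factor. Foxa2, a factor of node and endoderm, was held by 202 dTAG-13 and 104 untreated cells, and Zfp42, a marker of naive pluripotency, by 155 and 141. The exclusion thus removed more cells for Tbx6 in the untreated library and more for Foxa2 in the dTAG-13 library. Cells with at least 1 UMI of T and 2 of Tbx6 were also scarcer, at 1.14% (0.909 to 1.42) of dTAG-13 cells and 4.50% (4.01 to 5.03) of untreated cells. Sox2-positive cells with a Hox group 9 transcript and no T made up 13.1% (12.3 to 13.9) of dTAG-13 cells and 19.0% (18.0 to 19.9) of untreated cells.

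Members held a median of 3 T UMIs and 2 Sox2 UMIs in both libraries, with up to 24 T and 16 Sox2 UMIs in dTAG-13 cells and up to 19 and 20 in untreated cells. T supplied a median of 60% of the T and Sox2 UMIs of a member in each library. The edge of the rule was crowded, with 99 dTAG-13 and 184 untreated members at exactly 2 T UMIs, and 317 and 439 cells just outside it at 1. Fgf8 was 336 and 331 CPM in dTAG-13 and untreated members with 2 T UMIs, against 185 and 193 CPM in the cells with 1. Rspo3 was 265 and 227 CPM inside against 124 and 121 CPM outside. Cdx2 was 195 and 240.3 CPM inside against 164 and 221 CPM outside. Fgf8 and Rspo3 therefore differed more across the T threshold than Cdx2 did, and Cldn7, at 96.2 and 17.2 CPM inside against 99 and 16.2 CPM outside, hardly differed across it.

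Of 10 neuromesodermal progenitor markers other than T and Sox2, 5 were at least 2-fold higher in members than in other cells in both libraries and 1 at least 2-fold lower. Fgf8, a growth factor of the tail bud (chr19:45736798-45742915, minus strand in GRCm38), stood at 488 CPM (473 to 504) in dTAG-13 members and 415 CPM (404 to 425) in untreated members, against 115 and 149.5 CPM in the other cells of the 2 libraries. Wnt3a, the WNT ligand that maintains these progenitors, stood at 13.6 CPM (11.1 to 16.5) in dTAG-13 members and 18.5 CPM (16.4 to 20.9) in untreated members, against 1.86 and 5.99 CPM elsewhere. The caudal factor Cdx4 stood at 74.9 CPM (68.9 to 81.4) in dTAG-13 members and 103 CPM (97.7 to 108) in untreated members, against 17.1 and 44.3 CPM elsewhere. Its relative Cdx2 stood at 206 CPM (196 to 217) in dTAG-13 members and 254 CPM (246 to 263) in untreated members, against 88.7 and 133 CPM. All 4 were higher in members than in other cells within each library, Cdx2 by less than 2-fold in the untreated one. The lower marker was Fst, an activin and BMP inhibitor, at 23.4 CPM in dTAG-13 and 30.9 CPM in untreated members against 49.3 and 62.8 CPM in other cells. The contrast shares its cells with the rule and is a description.

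Over the other cells, 22 of 8849 genes (0.249%) were at least 2-fold higher in members in both libraries, and 25 (0.283%) at least 2-fold lower. The higher ones included tail bud signals and transcription factors. Fgf17, an FGF ligand, stood at 147 CPM in dTAG-13 and 149.9 CPM in untreated members against 54.4 and 61.4 CPM elsewhere. Hes7, the oscillating repressor of the segmentation clock, stood at 127 CPM in dTAG-13 and 160.4 CPM in untreated members against 32.4 and 77.6 CPM. Epha5, an ephrin receptor, stood at 79.3 CPM in dTAG-13 and 101 CPM in untreated members against 33 and 48.1 CPM. Zbtb16, Wnt5b, Msx1, Aqp11, Amph and Klhl32 were also among them. Cyp26a1 and Rspo3 ranked close behind, with log2 ratios over other cells of 0.97 and 0.97 for Cyp26a1 and of 2.02 and 0.94 for Rspo3 in the dTAG-13 and untreated libraries. Cyp26a1, an enzyme that degrades retinoic acid, stood at 25.1 CPM in dTAG-13 and 31.3 CPM in untreated members against 12.3 and 15.5 CPM, and Rspo3, a secreted amplifier of WNT signalling, at 439.7 CPM (425 to 455) and 361 CPM (351 to 371) against 107 and 188 CPM.

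At the other end stood genes of naive pluripotency, whose cells the rule removes through Zfp42. Tdh, a threonine dehydrogenase of mouse embryonic stem cells, was 2.91 CPM in dTAG-13 and 2.77 CPM in untreated members against 64.2 and 52.1 CPM in other cells. The pluripotency factor Klf2 was 6.48 CPM in dTAG-13 and 4.99 CPM in untreated members against 81.3 and 57.5 CPM. Dppa5a, a further stem cell gene, was 29.7 CPM in dTAG-13 and 35.5 CPM in untreated members against 527 and 464 CPM. Spink1, a gut endoderm gene, was 1.19 CPM in dTAG-13 and 0.416 CPM in untreated members against 44.9 and 21.5 CPM.

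**Figure D1:**
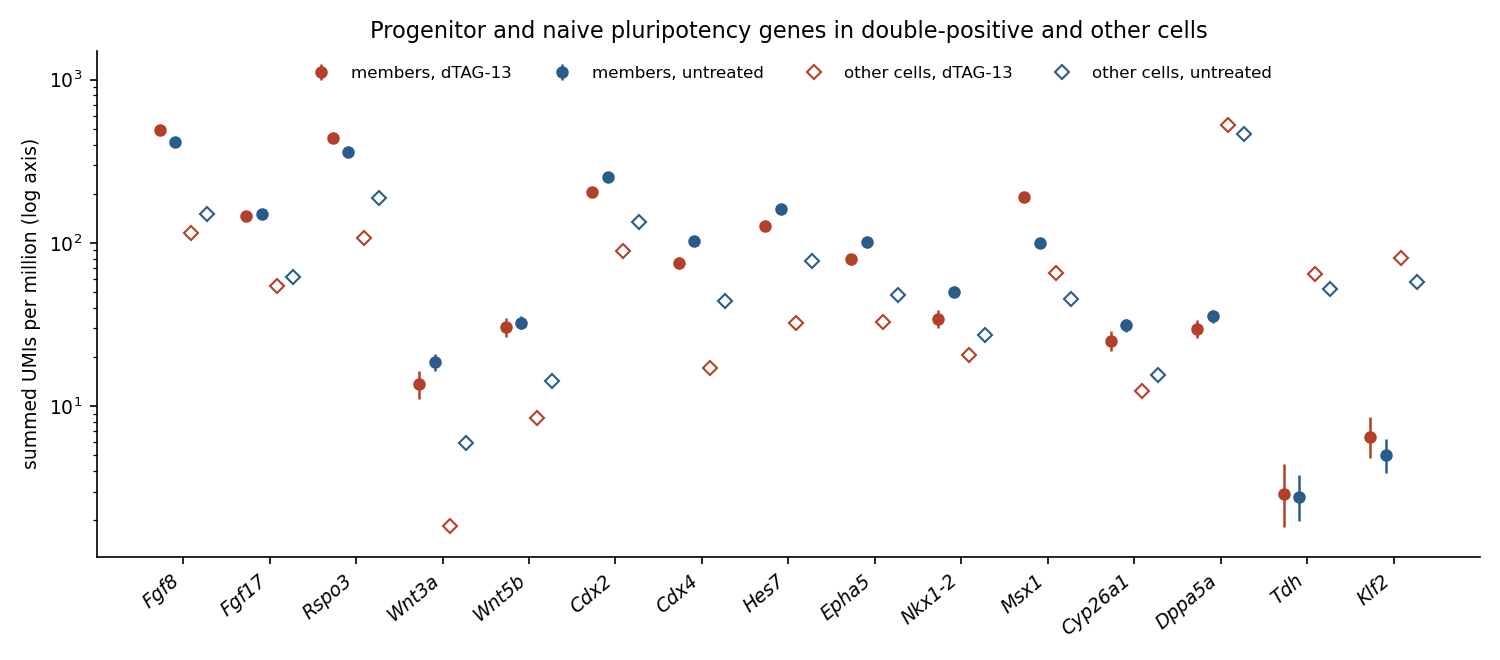
Levels of progenitor genes and of the naive pluripotency genes Dppa5a, Tdh and Klf2 in double-positive cells (members, filled circles with 95% Poisson intervals) and in all other cells (open diamonds), as CPM of summed UMIs on a log axis, with dTAG-13 in red and untreated in blue. Fgf8, Wnt3a, Cdx4 and Cdx2 lie higher in members than in other cells of the same library, and Dppa5a, Tdh and Klf2 lower.

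Once each cell was thinned to 5000 UMIs, Fgf8 and Cdx2 were detected in most members, and Cdx4 and Wnt3a in a minority. Fgf8 was detected in 80.3% (75.4 to 84.7) of dTAG-13 members and 76.9% (73.1 to 80.5) of untreated members, against 12.8% and 13.4% of cells with at least 2 Zfp42 UMIs (unthinned 94% and 96% of members). Cdx2 was detected in 60.7% (54.9 to 66.2) of dTAG-13 members and 71.7% (67.6 to 75.6) of untreated members, against 14.4% and 13.1% (unthinned 93% and 96.2% of members). Cells with Zfp42 stand for a state assumed to hold little of these genes. The part of free RNA in the members' shares was not tested, and these cells set no bound on it. They were deeper than members, with medians of 29463 and 27491.5 UMIs in dTAG-13 and untreated cells. Cdx4 was detected in 19.3% (15 to 24.3) of dTAG-13 members and 30% (26.1 to 34.1) of untreated members, against 1.89% and 4.75% (unthinned 33% and 45.2%). Wnt3a was detected in 7.67% (4.92 to 11.3) of dTAG-13 members and 11.2% (8.58 to 14.2) of untreated members, against 0.222% and 0.34% (unthinned 25% and 36.2%).

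Members were next set beside the cells that share part of the rule. On the mesodermal side are cells with T and Tbx6, and against these 38 of 9413 genes (0.404%) were at least 2-fold higher in members in both libraries and 58 (0.616%) at least 2-fold lower. The Nodal inhibitor Lefty1 ranked first among the named genes, at 93.2 CPM in dTAG-13 and 39.3 CPM in untreated members against 28.4 and 8.88 CPM. The top 5% of members held 92.8% and 95.4% of its UMIs. Epha5 stood at 79.3 CPM in dTAG-13 and 101 CPM in untreated members against 22.7 and 41.7 CPM in the Tbx6 cells. Nkx1-2, a homeobox gene of the progenitor zone, stood at 34.2 CPM in dTAG-13 and 50.3 CPM in untreated members against 6.11 and 23 CPM. Slc2a3, a glucose transporter, stood at 321 CPM in dTAG-13 and 241 CPM in untreated members against 104 and 112 CPM. Among the lower genes were several of presomitic mesoderm. Cited1, a transcriptional co-regulator, was 49.2 CPM in dTAG-13 and 55.1 CPM in untreated members against 420.1 and 367 CPM. Pcdh19, a protocadherin, was 5.82 CPM in dTAG-13 and 6.24 CPM in untreated members against 91.3 and 61.8 CPM, and Mesp1, a factor of early mesoderm, was 3.96 CPM in dTAG-13 and 4.3 CPM in untreated members against 56.8 and 27.3 CPM. Hes7, Rspo3 and Fgf4 were also higher in the Tbx6 cells, so they are not particular to members. In dTAG-13 and untreated Tbx6 cells Hes7 was 192 and 244 CPM, Rspo3 565 and 661 CPM, and Fgf4 42.8 and 48.5 CPM. Members held 127 and 160.4 CPM of Hes7, 439.7 and 361 CPM of Rspo3, and 20.1 and 20.5 CPM of Fgf4. Fgf8 was higher in members, at 488 and 415 CPM against 271 and 265 CPM.

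On the neural side are Sox2-positive cells with a Hox group 9 transcript and no T. Against these, 64 of 11409 genes (0.561%) were at least 2-fold higher in members in both libraries and 14 (0.123%) at least 2-fold lower. The 8 with the highest ratios were Rspo3, Defa30, Fgf4, Fgf8, Cyp26a1, Klhl32, Hes7 and Amph, of which Defa30 is also a leading gene of a cluster described below. Rspo3 stood at 439.7 CPM in dTAG-13 and 361 CPM in untreated members against 38.6 and 38.3 CPM in the T-negative cells. Fgf4, another FGF ligand, stood at 20.1 CPM in dTAG-13 and 20.5 CPM in untreated members against 2.22 and 0.573 CPM. Hes7 stood at 127 CPM in dTAG-13 and 160.4 CPM in untreated members against 31.1 and 39.3 CPM. Lower in members was Ptprz1, a receptor phosphatase of neural precursors, at 20.6 CPM in dTAG-13 and 16.5 CPM in untreated members against 53.5 and 63.1 CPM. The imprinted gene Mest was 113 CPM in dTAG-13 and 155 CPM in untreated members against 228 and 323 CPM, and the homeobox gene Meis2 68.2 CPM in dTAG-13 and 65.5 CPM in untreated members against 114 and 148 CPM. Slc2a3, Nkx1-2 and Epha5, higher in members than in the Tbx6 cells, were not particular to members. In dTAG-13 and untreated T-negative cells Slc2a3 was 484 and 305 CPM, above the members. There Nkx1-2 was 42 and 44.8 CPM against 34.2 and 50.3 CPM in members, and Epha5 66.2 and 76 CPM against 79.3 and 101 CPM.

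The double-positive cells were not 1 uniform population, and the libraries placed them differently. All cells of both libraries were clustered together. Cluster 3, led by Epha5, Hoxa9, Lix1 and Hoxc9, held 58 dTAG-13 members (19.3%, 15 to 24.3) and 222 untreated members (42.7%, 38.4 to 47.1). Cluster 6, led by T, Sprr2a3, Rspo3, Fgf4 and Wnt3a, held 73 dTAG-13 members (24.3%, 19.6 to 29.6) and 136 untreated members (26.2%, 22.4 to 30.2). Cluster 1 was non-neural ectoderm-like, with Sfn, Upk1a, Dlx5 and Ppl among its leading genes. It held 76 dTAG-13 members (25.3%, 20.5 to 30.7) and 19 untreated members (3.65%, 2.21 to 5.65). Cluster 9, left unnamed and led by Defa30, AY761185, Upk3a and Psmb8, held 37 dTAG-13 members (12.3%, 8.83 to 16.6) and 15 untreated members (2.88%, 1.62 to 4.71). Its best marker score was for notochord and node, at 2.28. All 8 markers of that list were at least 2-fold higher in the cluster as a whole, with a prior of 5 CPM. Of them Nog was among its 10 leading genes. Its members hold 0 Foxa2 and Noto by the rule, so these genes say nothing for or against that name. Untreated members thus lay mostly in clusters 3 and 6, and dTAG-13 members were spread over clusters 1, 3, 6 and 9.

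Genes that lead cluster 1 differ between the libraries themselves, so the cells were clustered again without the 139 genes past 2-fold between the whole libraries. The cluster led by Epha5 then held 18.7% of dTAG-13 members and 42.1% of untreated members. The cluster led by Sprr2a3, T and Rspo3 held 29.7% of dTAG-13 members and 26.9% of untreated members. The ectoderm-like cluster led by Sfn held 17.7% of dTAG-13 members and 2.88% of untreated members, so the order of the libraries was kept. Members of cluster 9 were divided in this second clustering. A cluster led by Defa30, Upk3a and AY761185, again scoring best for notochord and node (2.49), took 15 dTAG-13 and 7 untreated members of it. A cluster led by Psmb8 and Isg15 took 18 dTAG-13 and 3 untreated members. In the first clustering, cluster 1 had 1311 dTAG-13 and 224 untreated cells in all, and members made up 5.8% of the dTAG-13 cells and 8.48% of the untreated cells. Its larger share of dTAG-13 members therefore went with its larger size in that library.

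**Figure D2:**
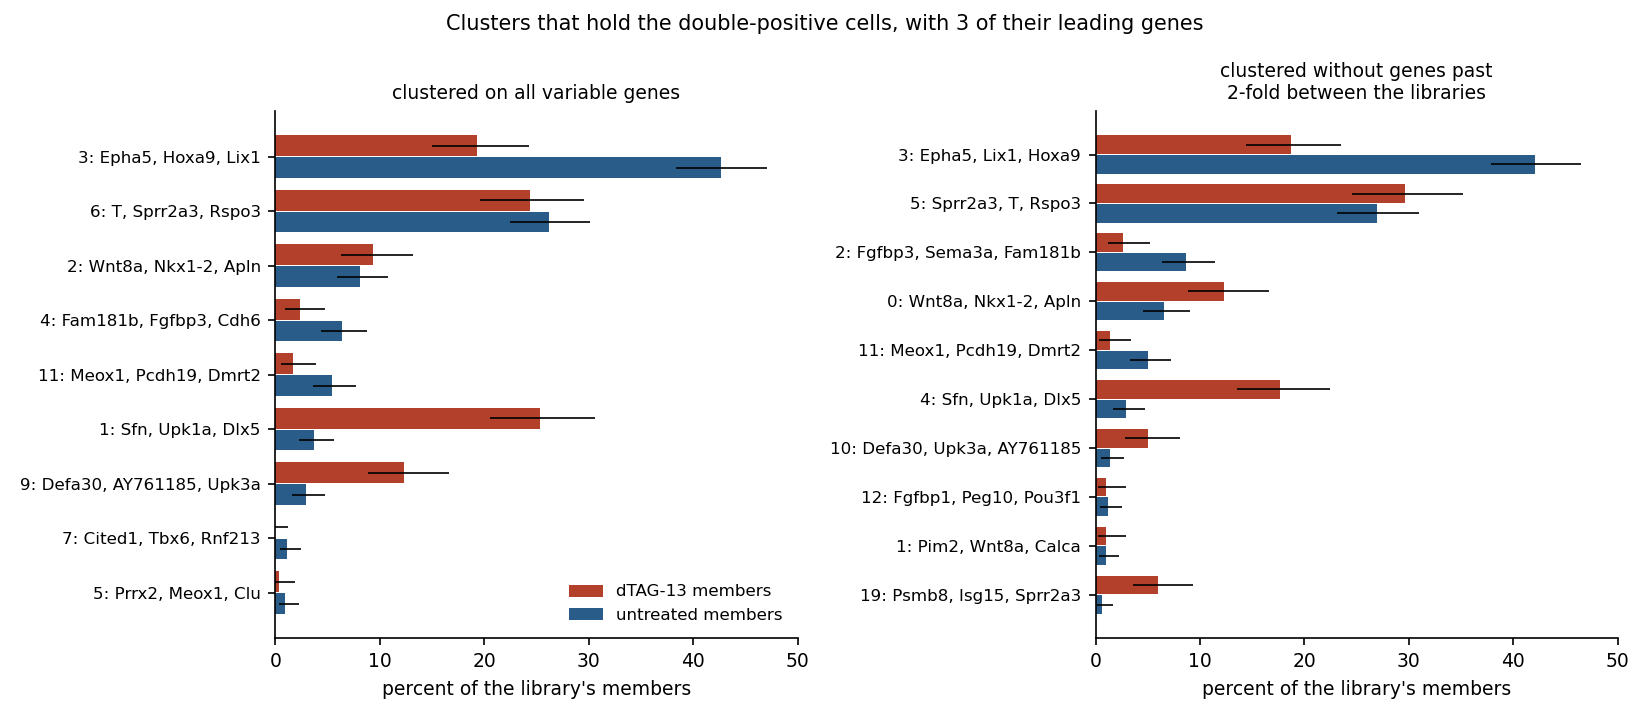
Percent of each library's double-positive cells in each joint cluster, with dTAG-13 (red) above untreated (blue), 95% exact binomial intervals and leading genes beside each cluster, for all variable genes and for a clustering without the genes past 2-fold between libraries. In the first clustering the cluster led by Epha5 holds 19.3% of dTAG-13 and 42.7% of untreated members, and the cluster led by Sfn 25.3% and 3.65%.

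Members of these clusters differed in progenitor genes that the rule did not use. In cluster 3 Cdx4 was 120.1 CPM (103 to 139) in dTAG-13 and 136 CPM (127 to 145) in untreated members, and in cluster 6 it was 146 CPM (128 to 166) and 109 CPM (97.4 to 122). In cluster 9 Cdx4 had 3 UMIs in dTAG-13 members and 0 in untreated members. Hoxb9, which marks trunk level, was 96.8 and 90.8 CPM in dTAG-13 and untreated members of cluster 9, against 701 and 642 CPM in those of cluster 3. Members of cluster 9 thus met the rule for T and Sox2 but held little of Cdx4 and Hoxb9. Cdx2 was also lower there, at 180 and 166 CPM against 257 and 293 CPM in cluster 3. Fgf8 was higher, at 719 and 632 CPM against 349 and 423 CPM. Rspo3 was higher too, at 624 and 541 CPM against 301 and 314 CPM. Cdx4 and Hoxb9 thus do not bear out the name of neuromesodermal progenitors for cluster 9, and the genes together do not settle it. Nog, a BMP inhibitor of the node and notochord, was 27.7 and 27.6 CPM in members of cluster 9 and 3.43 and 1.58 CPM in those of cluster 3. Shh, also on the notochord and node list, was 10.8 and 11.8 CPM in members of cluster 9, from 7 and 3 UMIs. In members of cluster 3 it was 0 and 0.316 CPM. Members of cluster 1 held tail bud and ectodermal transcripts together, with Fgf8 at 541 CPM (509.8 to 574) and 669 CPM (598 to 747) and Hoxb9 at 458 CPM (429 to 489) and 529 CPM (466 to 598) in dTAG-13 and untreated cells. Pairs of cells caught in 1 droplet were not removed, since the doublet caller Scrublet marked almost no barcode and did not work. Of the cells with its highest scores 21 dTAG-13 and 45 untreated cells were members, and without them members made up 4.17% of dTAG-13 and 7.62% of untreated cells.

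Epithelial genes held many of the highest ratios between the libraries within the members. Of 10939 genes with at least 50 UMIs, 523 (4.78%) were at least 1.5-fold higher in dTAG-13 members and 161 (1.47%) at least 1.5-fold lower, with a median log2 ratio of 0.03. Scaling by TMM factors changed this split to 417 higher and 221 lower, and by the median of ratios to 425 and 217. With at least 20 CPM in 1 library as well, 171 of 5941 genes (2.88%) were higher and 31 (0.522%) lower. Of a list of 30 epithelial junction and polarity genes, 27 had enough UMIs, of which 25 were higher and 0 lower, with a median of 1.54. In the other cells the list had 25 higher and a median of 1.27, where 2.59% of the same genes were higher and 1.22% lower, so the difference was not confined to members.

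Cldn7, a tight junction claudin (chr11:69964779-69967885, plus strand), had the highest ratio among genes of at least 20 CPM in 1 library. It stood at 105 CPM (97.6 to 112) in dTAG-13 members and 14.4 CPM (12.5 to 16.4) in untreated members, against 99.1 and 19.1 CPM in the other cells. The log2 ratio in members was 2.78 (interval without a prior 2.65 to 3.10). After thinning it was detected in 35.7% (30.2 to 41.4) of dTAG-13 members and 5.96% (4.09 to 8.36) of untreated members, against 7.02% and 1.15% of cells with the somite genes Meox1 and Tcf15 (unthinned 65% and 20.8% of members). Those somite cells had median depths of 25045.5 and 24009 UMIs, close to the members'.

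Gpx2, a glutathione peroxidase, and Sprr2a3 ranked next, and apical genes and keratin genes were also among the 15 highest. Rab25, a GTPase of apical membrane recycling, stood at 41.1 CPM (36.7 to 45.9) in dTAG-13 members and 6.87 CPM (5.58 to 8.36) in untreated members, a log2 ratio of 2.42. Crb3, an apical polarity protein, stood at 23.4 CPM (20.1 to 27.1) and 4.44 CPM (3.42 to 5.67), a log2 ratio of 2.17. The keratin Krt18 stood at 177 CPM (168 to 187) and 42.8 CPM (39.5 to 46.3), with a log2 ratio of 2.03, and its partner Krt8 had a log2 ratio of 1.72. Claudins other than Cldn7 were higher as well, with log2 ratios of 1.71 for Cldn6, 1.67 for Cldn4 and 1.63 for Cldn3, although Cldn3 was at 0.28 in clusters 3 and 6 and at -0.15 in cluster 3 alone. Epcam, an epithelial adhesion molecule, stood at 547 CPM (530.1 to 564) in dTAG-13 members and 223 CPM (215 to 231) in untreated members, and Cdh1 (E-cadherin) at 41.1 CPM (36.7 to 45.9) and 16.4 CPM (14.4 to 18.7), with a log2 ratio of 1.27 in members and 0.33 in cluster 3 alone. Esrp1 and Esrp2, splicing regulators of epithelia, had log2 ratios of 1.24 and 1.76, and the epithelial factor Grhl2 of 1.86. Spint2 and Lsr were the tested genes of the list under 1.5-fold, at 0.29 and 0.20.

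In sums, more cells of a kind and more RNA per cell cannot be told apart, so the members were split by cluster. The clusters were formed from expression of these same cells, and Sfn, Upk1a, Dlx5 and Rab25 are among the leading genes of cluster 1. Levels within a cluster thus depend in part on how it was formed, and the split does not fully separate these readings. Among members of clusters 3 and 6, 15 of 20 epithelial genes were higher and 0 lower, with a median log2 ratio of 0.98, where 316 of 9628 genes (3.28%) were higher and 202 (2.1%) lower. With at least 20 CPM in 1 library these members had 109 of 5840 genes (1.87%) higher and 32 (0.548%) lower. Cldn7 was 72.8 CPM (59.6 to 88) in dTAG-13 and 7.89 CPM (5.86 to 10.4) in untreated members of cluster 3, and 93.4 CPM (79.1 to 109) and 13.5 CPM (9.57 to 18.6) in those of cluster 6. Krt8 was 68 CPM (55.2 to 82.7) and 38.7 CPM (34 to 43.8) in cluster 3 and 120.4 CPM (104 to 139) and 73 CPM (63.3 to 83.7) in cluster 6. The difference was thus present in clusters 3 and 6, where Cdx4 was higher than in clusters 1 and 9, and for Krt8 it was smaller there than in all members. In members of cluster 1, Krt8 was 464 CPM (435 to 495) and 518 CPM (456 to 587) and Sfn 111 CPM (96.9 to 126) and 105 CPM (77.9 to 138) in dTAG-13 and untreated cells, with overlapping intervals. Some other epithelial genes were higher in the dTAG-13 members of that cluster without overlap, with Cldn7 at 165 CPM (148 to 184) and 67.1 CPM (45.9 to 94.8), Rab25 at 96.1 CPM (83 to 111) and 35.7 CPM (20.8 to 57.1) and Epcam at 790.1 CPM (752 to 829.8) and 636 CPM (566 to 712). Intervals overlapped for Cdh1, at 64.9 CPM (54.3 to 77) and 52.5 CPM (33.9 to 77.4), and also for Krt18, Cldn3 and Cldn6. The untreated sums come from 19 cells, and these intervals leave out the spread between cells.

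Single cells showed the same order. Thinned to 5000 UMIs, dTAG-13 members held a median of 9 UMIs of the 30 epithelial genes and untreated members 3, against 7 and 2 in the other cells. The median was 4 in dTAG-13 and 2 in untreated members of cluster 3, and 6 and 3 in those of cluster 6. In cluster 1 it was 15 and 16, and in cluster 9 it was 10 and 7. At least 10 such UMIs were held by 45.3% of dTAG-13 members and 6.92% of untreated members.

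**Figure D3:**
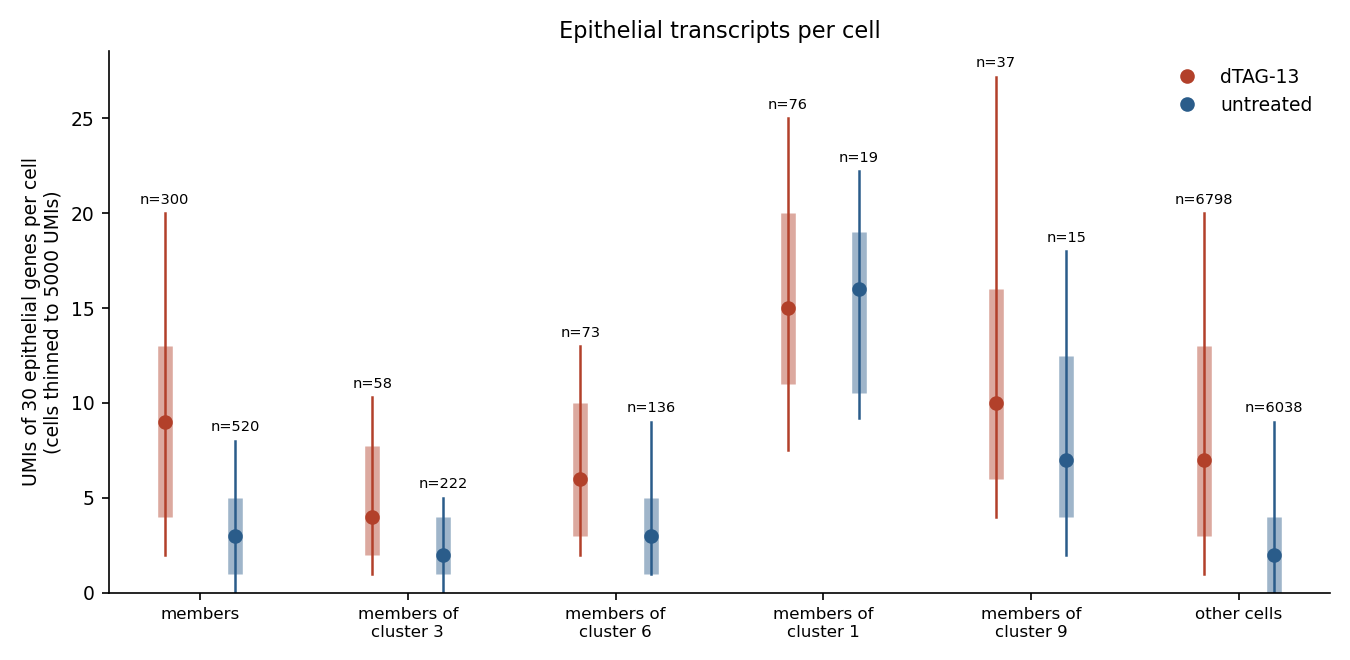
UMIs of the 30 epithelial genes per cell after thinning to 5000 UMIs, with dTAG-13 (red) left of untreated (blue) for members, members by cluster and other cells; circles are medians, shaded bars the middle 50% of cells and lines the 10th to 90th percentile. Medians are 9 in dTAG-13 and 3 in untreated members, and in cluster 1 they are 15 and 16.

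Promoter sequence is shown for 3 of these genes because Zeb2 is known to bind the E-box CACCTG. The 250 bases before each RefSeq start (GRCm38.p6) were searched for CACCTG and for CAGGTG, the same letters on the other strand. A gene was counted where any of its listed starts had a match, and bases inside annotated exons were not left out. The hexamers of Krt8 (-111) and Cldn6 (-93) lay in such exon bases, so the shares below are not of upstream sequence alone. Of the 30 epithelial genes, 19 had a promoter in the table, and 13 of these (68.4%) held the hexamer. Of all 27025 genes with a promoter, 5252 (19.4%) held it, and of the 8638 tested in members with a promoter 1503 (17.4%) did. It was in 125 of 398 genes at least 1.5-fold higher in dTAG-13 members (31.4%) and in 18 of 105 at least 1.5-fold lower (17.1%). Of the named genes with the highest ratios in dTAG-13 members, 14 had a promoter and 8 held the hexamer, but Sprr2a3 and Upk1a did not. Of those with the lowest ratios, 7 had a promoter and 1 held it, Hes5, with CACCTG at -194. The epithelial list was chosen with earlier results of these data known, and differences between these shares were not tested. A match of letters is no binding site, and binding was not measured here. Epcam is shown over chr17:87635729-87635978 (plus strand) with hexamers at -187 and -19 from the start, and Rab25 over chr3:88548301-88548529 (minus strand) with hexamers at -64 and -53. The first of the listed Cldn7 starts is shown over chr11:69964529-69964778 (plus strand), where these letters do not occur. Capitals mark the hexamer.
Epcam: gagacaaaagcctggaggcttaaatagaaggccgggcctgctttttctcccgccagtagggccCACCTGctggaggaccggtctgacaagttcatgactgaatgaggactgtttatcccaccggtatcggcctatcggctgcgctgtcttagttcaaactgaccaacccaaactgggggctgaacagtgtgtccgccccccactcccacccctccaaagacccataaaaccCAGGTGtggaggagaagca
Rab25: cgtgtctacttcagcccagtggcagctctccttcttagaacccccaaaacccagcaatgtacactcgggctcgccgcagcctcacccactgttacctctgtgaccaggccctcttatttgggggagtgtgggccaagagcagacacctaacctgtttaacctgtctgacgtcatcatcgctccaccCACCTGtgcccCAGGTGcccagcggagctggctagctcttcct
Cldn7: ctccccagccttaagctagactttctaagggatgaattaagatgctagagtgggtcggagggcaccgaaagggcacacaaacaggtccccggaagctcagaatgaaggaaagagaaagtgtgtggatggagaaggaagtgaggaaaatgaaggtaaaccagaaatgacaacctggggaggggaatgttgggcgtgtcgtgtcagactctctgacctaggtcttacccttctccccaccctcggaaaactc
The second listed start of Cldn7 had hexamers at -97 and -57, in a window that overlaps annotated exons and is not shown.

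Non-neural ectoderm genes were higher together with the epithelial ones. Of 10 such markers 8 had enough UMIs, and 8 were higher and 0 lower, with a median log2 ratio of 1.82 in members and 1.64 in other cells. Dlx5, a homeobox factor of the neural plate border, stood at 59.3 CPM (54 to 65.1) in dTAG-13 members and 12.1 CPM (10.4 to 14.1) in untreated members. Upk1a, a uroplakin of stratified epithelium, stood at 29.6 CPM (25.9 to 33.7) and 5.2 CPM (4.09 to 6.52). Sfn, a 14-3-3 protein of stratified epithelia, stood at 41.4 CPM (36.9 to 46.2) and 11 CPM (9.38 to 12.9). In clusters 3 and 6, 4 of 5 were higher, with a median of 0.88. Dlx5 in cluster 6 was 43 CPM (33.5 to 54.3) in dTAG-13 and 10.3 CPM (6.91 to 14.8) in untreated members, whereas Upk1a in cluster 3 had 4 dTAG-13 and 16 untreated UMIs. The list summed to 218 CPM in dTAG-13 members and 59.2 CPM in untreated members, and its part in the epithelial difference was not tested beyond the split by cluster.

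Several of the highest genes were neither junctional nor ectodermal markers. Sprr2a3, a small proline-rich gene whose near-identical copies make its count uncertain, stood at 96.9 CPM (89.99 to 104) in dTAG-13 members and 15.6 CPM (13.6 to 17.8) in untreated members. Its log2 ratio was 2.56 in members and 0.68 in other cells, a difference that was not tested. Its UMIs came from few cells, since the top 5% of members held 60.8% of them in the dTAG-13 library and 83.6% in the untreated library. It had 3 dTAG-13 and 12 untreated UMIs in cluster 3, and was 229 CPM (206 to 253) and 43.1 CPM (35.7 to 51.5) in cluster 6. Gpx2, a glutathione peroxidase of epithelia, stood at 22.6 CPM (19.3 to 26.3) and 2.77 CPM (1.98 to 3.78), with a log2 ratio of 2.64 in members and 1.15 in other cells. AY761185, which has close copies and an uncertain count, stood at 64.4 CPM (58.8 to 70.3) and 15.4 CPM (13.4 to 17.6). Psmb8, a subunit of the immunoproteasome, stood at 21 CPM (17.9 to 24.5) and 6.38 CPM (5.14 to 7.82), and its ratio turned to -0.09 in cluster 3 alone. Cobl, an actin nucleator, had a log2 ratio of 1.65 in members, 2.10 in clusters 3 and 6 and 0.59 in other cells.

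**Figure D4:**
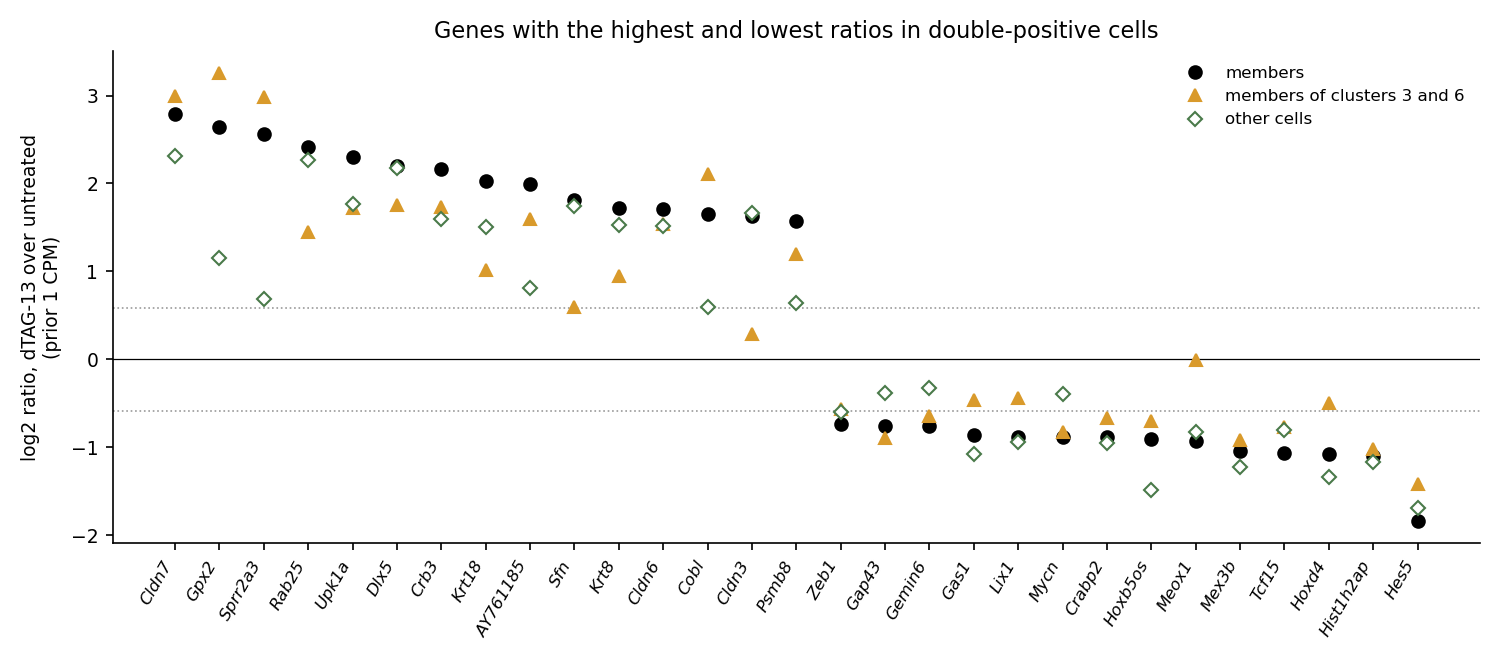
Log2 ratio of dTAG-13 over untreated for the 15 highest and 14 lowest named genes in all members (black circles), in members of clusters 3 and 6 (triangles) and in other cells (open diamonds), with dotted lines at 1.5-fold. Cldn7 lies at 2.78 in members and 2.31 in other cells, Sprr2a3 at 2.56 and 0.68, and Hes5 at -1.84 and -1.69.

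Hes5, a Notch-dependent repressor of neural precursors (chr4:154960923-154962371, plus strand), had the lowest ratio among genes of at least 20 CPM in 1 library. It stood at 23.8 CPM (20.4 to 27.5) in dTAG-13 members and 87.8 CPM (83 to 92.8) in untreated members, against 12.4 and 42.2 CPM in the other cells. Its log2 ratio was -1.84 in members (interval without a prior -2.12 to -1.66). After thinning it was detected in 11% (7.69 to 15.1) of dTAG-13 members and 27.7% (23.9 to 31.8) of untreated members, against 1.33% and 3.06% of cells with Zfp42 (unthinned 26.3% and 57.5% of members). Hes5 was lower within both clusters 3 and 6, at 41.2 CPM (31.4 to 53) in dTAG-13 and 109.9 CPM (102 to 118) in untreated members of cluster 3 and 33.8 CPM (25.5 to 44) and 82.6 CPM (72.3 to 93.9) in cluster 6. Of 14 Notch and segmentation clock genes, 0 were higher and 2 lower (1.47% of all tested genes were lower), with a median log2 ratio of -0.32. In other cells 8 were lower and the median was -0.61. The other lower gene was the divergent ligand Dll3, at 16.9 CPM in dTAG-13 and 26.6 CPM in untreated members. The receptor Notch1 had a log2 ratio of -0.12, the effector Hes1 of 0.16 and the clock gene Hes7 of -0.33.

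The remaining low genes came from several lineages. Crabp2, a retinoic acid binding protein, stood at 66.2 CPM (60.5 to 72.3) in dTAG-13 members and 123 CPM (118 to 129) in untreated members. Mycn, a growth-promoting factor, stood at 13.6 CPM (11.1 to 16.5) and 26 CPM (23.4 to 28.8), and Zeb1, the paralogue of Zeb2, at 16 CPM (13.3 to 19.1) and 27.3 CPM (24.7 to 30.2). In cluster 3 alone the log2 ratios of Crabp2, Mycn and Zeb1 were -0.53, -0.54 and -0.36, under 1.5-fold, and Zeb1 was at -0.57 in clusters 3 and 6 and -0.40 without clusters 1 and 9. The somite factors Tcf15 and Meox1 stood at 11.2 CPM in dTAG-13 and 24.6 CPM in untreated members and at 10.2 CPM in dTAG-13 and 20.3 CPM in untreated members, but 1 dTAG-13 cell held 49.4% of the Meox1 and 38.8% of the Tcf15 UMIs of its library's members. Meox1 had a log2 ratio of -0.93 in members, -0.01 in clusters 3 and 6 and 0.43 in cluster 3 alone. Hist1h2ap, a histone gene with near-identical copies and an uncertain count, stood at 18.6 CPM in dTAG-13 and 41.1 CPM in untreated members. Hoxb5os, antisense to Hoxb5 and uncertain where strand use in counting is not given, stood at 164 CPM in dTAG-13 and 310.1 CPM in untreated members. Mex3b, Lix1, Gas1, Gemin6 and Gap43 had log2 ratios between -1.04 and -0.76. Lix1 was at -0.44 and Gas1 at -0.46 in clusters 3 and 6, under 1.5-fold, and Lix1 at -0.02 in cluster 3 alone. Gemin6 and Gap43 were at -0.41 and -0.46 when T at 1 UMI was admitted.

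Hox genes, which record position along the body axis, were in part lower in dTAG-13 members, and the difference between groups of them was not tested. Of Hox groups 1 to 4, 6 of 12 were lower and 0 higher in dTAG-13 members (1.47% of all tested genes were lower), with a median log2 ratio of -0.51. Hoxd4 was 23.5 CPM (20.2 to 27.2) in dTAG-13 members and 51 CPM (47.4 to 54.8) in untreated members, and Hoxb1 44.4 CPM (39.8 to 49.4) and 72.8 CPM (68.5 to 77.4). Of groups 5 to 9, 2 of 14 were lower, Hoxd8 and Hoxa9, with a median of -0.23. Hoxb9 was 459.7 CPM (445 to 475) and 551 CPM (539 to 564). In the other cells the medians were -0.82 for groups 1 to 4 and -0.80 for groups 5 to 9, and in clusters 3 and 6 they were -0.25 and -0.03. There 0 of 10 genes of groups 1 to 4 were lower past 1.5-fold, with Hoxd4 at -0.50, and 1 of 14 of groups 5 to 9. Within cluster 3 Hoxa9 was 119 CPM (102 to 138) in dTAG-13 and 115 CPM (107 to 124) in untreated members, and within cluster 6 44.9 and 69.4 CPM, without overlap of the intervals. Of groups 10 to 13 only 2 of 12 genes had enough UMIs, with 0 lower and a median of -0.16.

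Progenitor signals lay under 1.5-fold between the libraries. Of 10 progenitor markers other than T and Sox2, 0 were higher and 0 lower, with a median log2 ratio of -0.35 in members and 0.00 in clusters 3 and 6. In other cells 3 were lower and the median was -0.46. The log2 ratio in members was 0.24 for Fgf8, -0.03 for Fgf17, -0.42 for Wnt3a, -0.30 for Cdx2 and -0.45 for Cdx4. For Nkx1-2 it was -0.54, with an interval without a prior of -0.76 to -0.35 that reached past 1.5-fold. In clusters 3 and 6 Nkx1-2 was at -0.55. Of 19 FGF genes 0 were higher and 2 lower, the receptor Fgfr2 and the binding protein Fgfbp3, with a median of -0.13, where 1.47% of all tested genes were lower. FGF feedback genes had log2 ratios of -0.49 for Spry4, -0.30 for Dusp6 and 0.05 for Etv5. Of 21 WNT genes 2 were higher (4.78% of all tested genes were higher) and 0 lower, with a median of 0.01. These were Rnf43, a ligase that removes WNT receptors, and Tcf7l1, a repressor at WNT targets, while the target Axin2 stood at 69.8 CPM (64 to 76) and 75.7 CPM (71.2 to 80.3). Of 9 retinoic acid genes 2 were lower, Crabp2 and the synthesis enzyme Aldh1a2, with a median of 0.01.

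Some BMP-related genes were higher in dTAG-13 members. Msx1, a homeobox target of BMP signalling, stood at 191 CPM (181 to 201) in dTAG-13 members and 99.2 CPM (94.1 to 104) in untreated members, a log2 ratio of 0.94 against 0.52 in other cells. It was 164 CPM (144 to 186) in dTAG-13 and 104 CPM (95.9 to 112) in untreated members of cluster 3 and 229 CPM (206 to 254) and 114 CPM (102 to 127) in cluster 6, so both clusters showed it. Where 4.78% of all tested genes were higher and 1.47% lower, 4 of 13 BMP and SMAD response genes were higher and 0 lower, with a median of 0.25. Beside Msx1 these were the ligands Bmp2, at 9.91 CPM (7.8 to 12.4) and 2.15 CPM (1.46 to 3.05), and Bmp4, at 5.68 CPM (4.11 to 7.66) and 3.4 CPM (2.51 to 4.49), and the inhibitor Nog, at 4.36 CPM (3.00 to 6.13) and 2.22 CPM (1.52 to 3.13). Bmp2 had a log2 ratio of 0.29 in cluster 3 alone, and of the 33 Nog UMIs of dTAG-13 members 1 cell held 12 (36.4%). Id1 and Id3, direct BMP targets, had log2 ratios of 0.47 and 0.48 in members and of 0.80 and 0.56 in clusters 3 and 6.

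Lefty1, an inhibitor of Nodal, came from very few members. It stood at 93.2 CPM (86.4 to 100.3) in dTAG-13 members and 39.3 CPM (36.1 to 42.7) in untreated members, but the top 5% of cells held 92.8% and 95.4% of its UMIs. In cluster 9 it was 732 CPM (667 to 800.5) in dTAG-13 and 561 CPM (472 to 661) in untreated members, and in cluster 6 4.3 CPM (1.73 to 8.86) and 24.9 CPM (19.4 to 31.5), so its direction turned round between clusters. Of 12 Nodal and TGF-beta genes 2 were higher, Lefty1 and Lefty2, and 1 lower, the Nodal co-receptor Tdgf1, with a median of 0.20. Over all tested genes 4.78% were higher and 1.47% lower.

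Genes of the epithelial-to-mesenchymal transition were mixed. Of 12 tested, 2 were higher and 5 lower, with a median log2 ratio of -0.22 in members, -0.51 in clusters 3 and 6 and -0.24 in other cells. Over all tested genes 4.78% were higher and 1.47% lower in members. Vim, the mesenchymal intermediate filament, stood at 94.1 CPM (87.3 to 101) in dTAG-13 members and 146 CPM (139.7 to 152) in untreated members, a log2 ratio of -0.63 that was under 1.5-fold in thinned members, at -0.46, and without clusters 1 and 9, at -0.58. Twist1 and Cdh11, a transcription factor and a cadherin of mesenchyme, had log2 ratios of -0.79 and -0.76, and Snai2 of -0.59, and Zeb1 was the fifth lower gene. Cdh2 (N-cadherin) stood at 67.7 CPM (61.9 to 73.8) and 89 CPM (84.2 to 94), under 1.5-fold. Sparc, a matrix protein, was higher, with a log2 ratio of 0.63. Zeb2 transcript (chr2:44983632-45117395, minus strand) was also higher, at 96 CPM (89.1 to 103) in dTAG-13 members and 60.4 CPM (56.5 to 64.5) in untreated members, with a log2 ratio of 0.66 against 0.45 in other cells. That ratio was under 1.5-fold in clusters 3 and 6, at 0.49, and in thinned members, at 0.44. dTAG-13 acts on the protein, so this transcript does not check the labels.

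**Figure D5:**
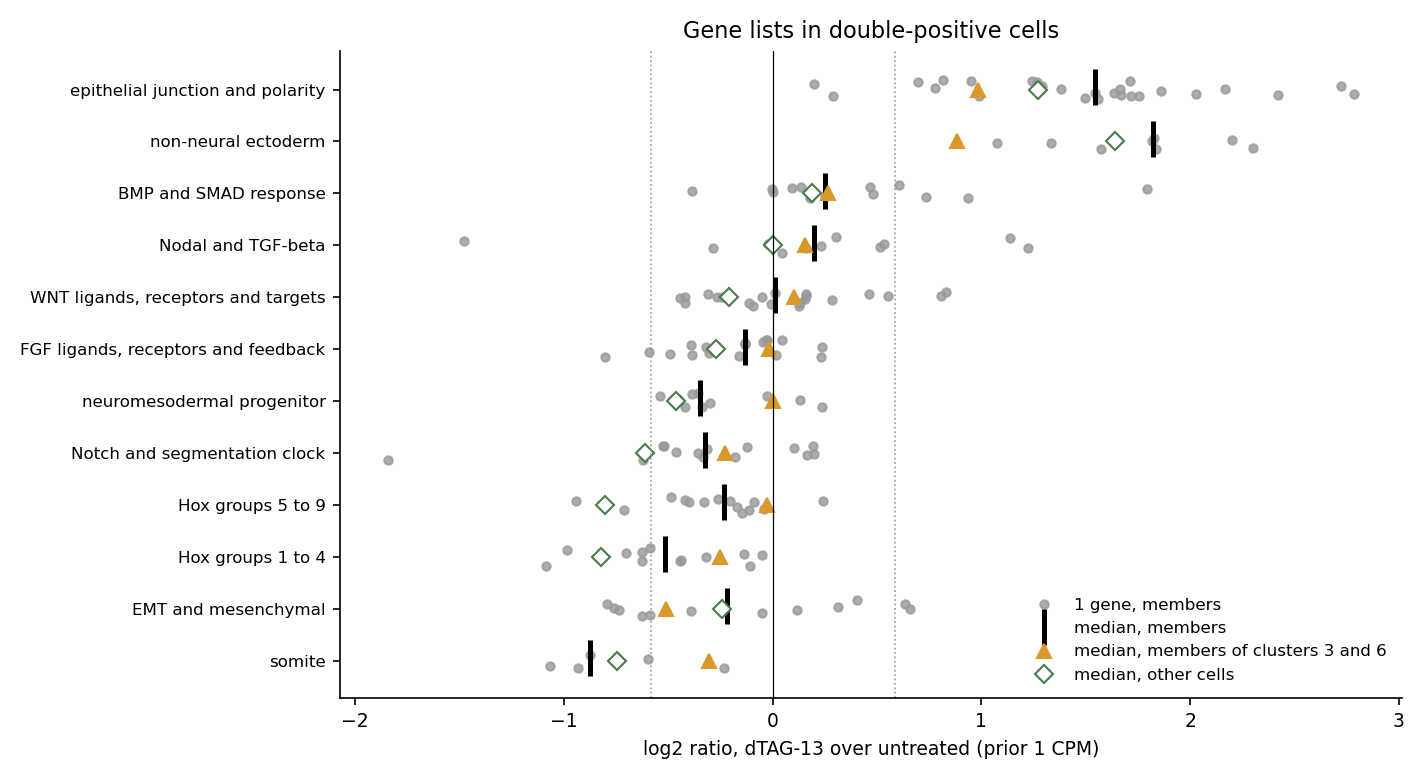
Log2 ratio of dTAG-13 over untreated for the genes of each list in double-positive cells (grey points), with list medians in all members (bars), in members of clusters 3 and 6 (triangles) and in other cells (open diamonds), and dotted lines at 1.5-fold. Epithelial genes have medians of 1.54, 0.98 and 1.27, and Hox groups 5 to 9 of -0.23, -0.03 and -0.80.

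Markers of other cell types and of cell state were read in the same members, where 4.78% of all tested genes were higher and 1.47% lower. Of 5 tested somite genes 4 were lower, Meox1, Tcf15, Foxc2 and Aldh1a2, and the whole somite list summed to 42.8 CPM in dTAG-13 members and 77.1 CPM in untreated members. In clusters 3 and 6, 1 of 2 tested somite genes was lower. Cluster 11, led by Meox1, Pcdh19, Dmrt2 and Tcf15, held 5 dTAG-13 members (1.67%) and 28 untreated members (5.38%). Its cells had a median of 41306 UMIs, and its part in the somite difference was not tested. Of 5 presomitic genes 1 was lower, Dll3, and of 4 spinal cord genes 1, Hes5. Among 4 neuronal genes 0 were past 1.5-fold in either direction. Both tested node and notochord genes, Krt19 and Nog, were higher, as was Cldn6 of 2 endoderm genes. Krt19 and Cldn6 are on the epithelial list as well. Of 5 naive pluripotency genes 1 was higher, Nanog, at 3.83 and 2.22 CPM in dTAG-13 and untreated members. Of 7 epiblast genes 3 were higher and 1 lower. The higher ones were Otx2, Lefty2 and the DNA methyltransferase Dnmt3b, at 118 CPM (110.2 to 126) and 67.7 CPM (63.5 to 72.1) in dTAG-13 and untreated members, and the lower one was Mixl1. Of 14 genes shared with formative pluripotency 4 were higher, Nanog, Otx2, Dnmt3b and L1td1, with a median log2 ratio of 0.09, and of 16 early neural genes 1 was lower, Irx5, with a median of -0.25. Kdr and Etv2, early endothelial genes, stood at 7.4 CPM in dTAG-13 and 1.73 CPM in untreated members and at 26.2 CPM in dTAG-13 and 14.1 CPM in untreated members, and Bmp4 was the tested gene of the lateral plate list. Cluster 21, with Kdr and Etv2 among its leading genes, held 3 dTAG-13 members and 1 untreated member. Its part in the levels of Kdr and Etv2 was not tested. In clusters 3 and 6, 1 gene of the endothelial list had enough UMIs, with a log2 ratio of -0.36.

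Cell cycle genes lay under 1.5-fold between the libraries. Of 16 S phase and 16 G2 and M phase genes 0 were past 1.5-fold, with median log2 ratios of -0.05 and 0.04. The same held for 16 hypoxia and glycolysis genes, with a median of 0.09, and for 13 mitochondrial transcripts, with a median of 0.10. Of 9 immediate early genes, which respond to dissociation, 5 were higher, with a median of 0.64 in members, 0.22 in clusters 3 and 6 and 0.34 in other cells. Egr1, a factor of that kind, stood at 6.34 CPM in dTAG-13 and 2.15 CPM in untreated members. The part of this response in the other differences was not tested.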

How the data were processed

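Single cells of 1 dTAG-13 and 1 untreated library were measured by 10x Genomics 3' sequencing. The files deposited by the authors hold counts (UMIs per gene and barcode) from Cell Ranger 6.1.2 on mm10, per the submitters' processing notes; strand use and cell calling settings are not given in the sources used here. Gene positions come from GENCODE M21 (GRCm38), to which 32235 of 32285 gene IDs matched.

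UMIs were summed over members in each library and scaled to CPM. Log2 ratios of dTAG-13 over untreated carry a prior of 1 CPM, and a gene was counted past 1.5-fold with at least 50 UMIs over both libraries, leaving out the genes of the rule. Over other cells and neighbouring states 2-fold in both libraries was asked. Exact conditional intervals of a ratio carry no prior. Cells were thinned to 5000 UMIs for detection, and clustered with scanpy 1.11.5 and leidenalg 0.10.2. The sums and ratios were tested on simulated data. Scaling alternatives used edgeR 4.0.16 and DESeq2 1.42.0.

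Named genes were the 15 highest and 15 lowest ratios among genes of at least 20 CPM in 1 library, the 15 highest and 10 lowest over other cells, the 8 highest and 8 lowest over each neighbouring state, leaving out predicted and mitochondrial genes, and from each list the extremes and members with a described role. One gene that the rule names is not reported here. Members and lists were chosen with earlier results of these data known.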

Additional observations from a re-analysis of the deposited data

How the results depend on the processing

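The share of double-positive cells depended on the rule, and in each setting it was lower in the dTAG-13 library. It was 8.59% of dTAG-13 and 14.4% of untreated cells with T at 1 UMI or more, 2.80% and 5.06% with T at 3 or more, 3.02% and 5.58% with Sox2 at 2 or more, 9.14% and 14.6% with no excluding gene, and 0.958% and 1.54% when cells were thinned before the rule. With at most 5% mitochondrial UMIs it was 3.99% and 8.50%. The count of genes at least 1.5-fold higher was 243 with a prior of 5 CPM, 869 from 10 UMIs, 171 with 20 CPM in 1 library, 284 in cluster 3, 316 in clusters 3 and 6 and 342 without clusters 1 and 9, against 523. The count of lower genes was 29 with that prior, 315 from 10 UMIs, 31 with 20 CPM and 333 in cluster 3, against 161. The 22 genes higher over other cells became 9 with that prior, 35 by means per cell and 11 after thinning, and the 25 lower ones 6 after thinning and 99 from 10 UMIs. Without the genes past 2-fold between libraries, the cluster led by Rspo3 held 29.7% and that led by Sfn 17.7% of dTAG-13 members. The splits by clusters 3 and 6 and without clusters 1 and 9, the CPM minimum and the second clustering were chosen after seeing the data. Of 50 genes followed over 14 settings, 39 were past 1.5-fold, and 537 of their 546 values kept their sign, 501 of them also past 1.5-fold. Many of these genes were followed for their extreme ratios, so a kept sign says little where only scaling or the prior changed. In cluster 3 alone 36 of the 50 genes moved outside their counting interval and 6 more turned sign. These counts were 34 and 2 in clusters 3 and 6, and 28 and 1 without clusters 1 and 9. The sign turned in cluster 3 for Cldn3 (-0.15), Psmb8 (-0.085), Meox1 (0.43), Hoxa9 (0.045), Lefty1 (-0.70) and Lefty2 (-2.71), in clusters 3 and 6 for Lefty1 (-1.36) and Lefty2 (-3.30), and without clusters 1 and 9 for Lefty2 (-0.78). The cause was not tested. TMM scaling shifted all log2 ratios by -0.0586 and the median of ratios by -0.0524. No paired analysis was possible because each group holds 1 library and no result comes from a test, and for the same reason no replicate could be left out.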
